A study of Mus musculus with 2 samples.

Results

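A group of 10 genes of the glutathione system was followed through a single-cell RNA study of a mouse tumor: Slc7a11 and Slc3a2 (cystine import), Gclc, Gclm and Gss (synthesis), Gsr (reduction), and Gstm1, Gsto1, Gstp1 and Mgst1 (transfer). These 10 were taken by symbol from the 32285 gene rows of the files, each symbol having 1 row, and all 10 had UMIs (unique molecular identifiers, each counting 1 captured transcript) in both libraries. A syngeneic fibrosarcoma, that is a connective tissue tumor from the same mouse strain, was grown subcutaneously in C57BL/6 mice of wild-type genotype. Tumors were dissociated with collagenase and DNase at 37 C for 45 min, and magnetic columns split the cells into a flowthrough (iron-negative) and an enriched eluate (iron-positive). From each of the fractions 1 library was made with 10x Genomics 3' v3 chemistry. Both groups are thus wild type. The age and number of the mice and whether tumors were pooled are not given in the sources used here, and iron itself was not among the values analysed.

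Glutathione is a tripeptide of glutamate, cysteine and glycine, and it is the main soluble thiol with which cells reduce peroxides and bind electrophiles. Cystine enters through the exchanger formed by the transport subunit Slc7a11 and the heavy chain Slc3a2, the ligase made of the catalytic Gclc and the modifier Gclm performs the rate-limiting step of synthesis, Gss adds the glycine, and Gsr turns the oxidised dimer back with NADPH. Glutathione S-transferases then couple glutathione to other molecules. Several of these genes are textbook targets of the transcription factor NRF2, Slc7a11 is also a target of ATF4, and macrophages that degrade heme are a known site of NRF2 activity.

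The promoters were searched for motifs of NRF2 and ATF4, and for the AP-1 site, another motif of stress-responsive genes, and the 4 with a match are shown. Of the 10 members, 8 have an entry in the RefSeq promoter table (build GRCm38.p6, 250 bases before to 50 after the start). Gclc and Gsr do not. Both strands of the 300 bases were searched for the core of the antioxidant response element bound by NRF2, TGACNNNGC, which 12.4% of all 32851 promoters hold, for an amino acid response element of the kind bound by ATF4, TGATGNAA (3.97%), and for the AP-1 site TGANTCA (7.81%). The antioxidant core was in the promoters of Gclm and Mgst1, the amino acid element in that of Slc7a11, and the AP-1 site in that of Gstp1. Gss, Gstm1, Gsto1 and Slc3a2 held none of these letters in this window. Matches are in capitals below, and each sequence runs 5' to 3' on the gene's own strand. The Slc7a11 stretch is chr3:50443614-50443813 on the minus strand, and its 2 matches, 1 on each strand, begin 66 and 47 bases before the start.
Slc7a11: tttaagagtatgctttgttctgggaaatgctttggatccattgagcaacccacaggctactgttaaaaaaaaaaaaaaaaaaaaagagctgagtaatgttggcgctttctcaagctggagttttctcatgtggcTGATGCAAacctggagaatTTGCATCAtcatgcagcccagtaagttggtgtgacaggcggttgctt
The Gclm stretch is chr3:122245357-122245556 on the plus strand, with the match on the opposite strand.
Gclm: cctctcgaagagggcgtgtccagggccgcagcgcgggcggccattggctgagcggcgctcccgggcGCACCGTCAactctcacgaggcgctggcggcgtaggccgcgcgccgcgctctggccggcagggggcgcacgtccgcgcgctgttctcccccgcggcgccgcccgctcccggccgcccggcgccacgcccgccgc
The Mgst1 match lies in chr6:138140461-138140490 on the plus strand, again with the match on the opposite strand. RefSeq and GENCODE place the starts of Mgst1 and Gstp1 differently, so that the Mgst1 stretch lies inside the GENCODE gene span given further on and the Gstp1 stretch overlaps its end.
Mgst1: gcggggcttgGCACGGTCAggaggcggggt
The Gstp1 match lies in chr19:4037967-4037996 on the minus strand.
Gstp1: tccaacgtgtTGAGTCAgcatccggggcgg

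Sequencing gave 132796517 UMIs in 10124 iron-negative barcodes and 129921053 UMIs in 13668 iron-positive barcodes. Barcodes with at least 200 genes and at most 15% mitochondrial UMIs were kept, 9403 and 12143. Phagocytes (monocytes and macrophages) were barcodes with at least 100 UMIs per 10000 from 14 marker genes and no other lineage's markers at their limit (49 iron-negative and 285 iron-positive barcodes past both limits were set aside), which gave 9146 iron-negative cells (97.3% of those kept, median 13108 UMIs) and 9699 iron-positive cells (79.9%, median 8134 UMIs). Since the libraries shared 85 barcode sequences (53 of iron-negative and 44 of iron-positive phagocytes), the comparison was repeated without them. Markers of several other lineages were also higher in the iron-positive phagocytes. The 8 markers of collagen-high fibroblasts, none at 0 in either library, summed to 74.2 CPM (UMIs per 1000000 UMIs summed over the cells named) against 20.4. The 9 of endothelial cells summed to 103 against 69.0, the 9 of pericytes and smooth muscle to 19.0 against 7.39 (2 at 0 in the iron-negative library), the 5 of neutrophils to 64.0 against 45.7, and the 12 of T and NK cells to 3.24 against 2.79. Their part in the results was not tested. With 1 library per group there is no replicate and no p-value, every interval below is a 95% interval for counting error only, and a difference between the libraries cannot be told apart from a difference between the fractions.

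The plainest result was that synthesis, reduction and transfer genes were not all raised together in iron-positive phagocytes. Gclm, Gstm1, Gsr, Mgst1, Slc7a11 and Gclc were at least 1.5-fold higher, Gstp1 was at least 1.5-fold lower, and Gss, Gsto1 and Slc3a2 lay between. Thus 6 of 10 members were higher, where 2.32% of all 7715 genes measured (at least 10 CPM in either library) were, and 1 of 10 was lower, where 0.609% were. The median log2 ratio of the members was 0.96, against -0.11 over all genes measured. Because the ratio of the median gene was itself below 1, the log2 ratios scaled to that gene are 0.11 higher throughout, which brings Slc3a2 to 0.00 and Gstp1 to -0.51, short of 1.5-fold, and leaves the 6 higher members higher.

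**Figure D1:**
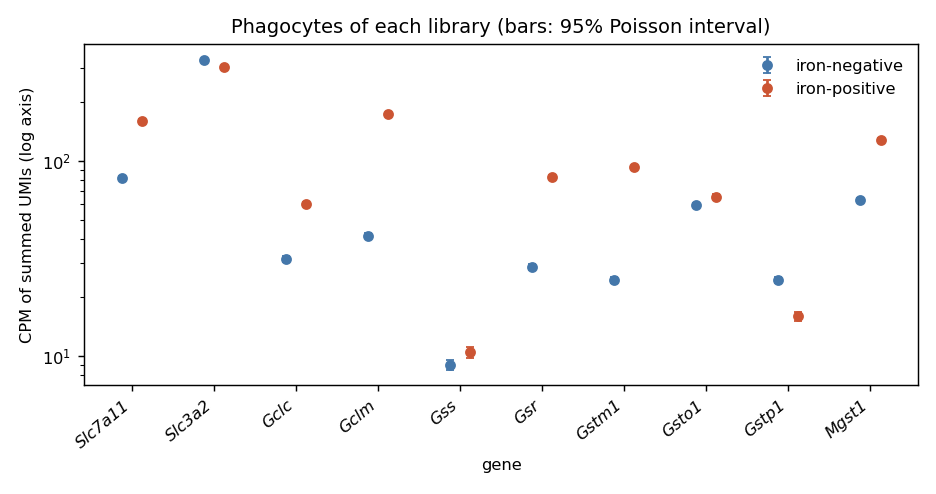
Level of each member in the phagocytes of both libraries, as CPM of summed UMIs on a log axis; points are libraries and bars 95% Poisson intervals, most of them smaller than the points. Gclm stands at 41.5 and 174 CPM, while Slc3a2 and Gsto1 nearly coincide and Gstp1 is the lower in the iron-positive library.

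Of the cystine exchanger, only the transport subunit was higher. Slc7a11 (ENSMUSG00000027737, chr3:49892526-50443614, minus strand, build GRCm38), whose promoter with its paired amino acid elements is printed above, was at 82.0 CPM in iron-negative and 161 CPM in iron-positive phagocytes, a ratio of 1.96 (1.91 to 2.01). Its partner Slc3a2 (ENSMUSG00000010095, chr19:8706882-8723369), which also carries other amino acid transporters to the cell surface, was at 328 and 304 CPM, a ratio of 0.927 (0.913 to 0.941) that is 1 when scaled to the median gene. A higher level of the exchanger's transport subunit thus stood beside a level of the heavy chain that kept pace with the median gene.

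The ligase subunits differed by unequal amounts, and the enzyme of glycine addition by little. Gclm (ENSMUSG00000028124, chr3:122245557-122270732) had 5196 UMIs in iron-negative and 15811 in iron-positive phagocytes, or 41.5 and 174 CPM, a ratio of 4.19 (4.06 to 4.33), the highest of the 10 members. Gclc (ENSMUSG00000032350, chr9:77754535-77794485) was at 31.4 and 60.3 CPM, a ratio of 1.92 (1.84 to 1.999). Gss (ENSMUSG00000027610, chr2:155563181-155592810) was the least counted member, with 1133 and 948 UMIs, 9.05 and 10.4 CPM, and a ratio of 1.15 (1.06 to 1.26). So the modifier subunit differed more between the libraries than the catalytic one, their intervals lying apart. Gsr (ENSMUSG00000031584, chr8:33652523-33698163), the reductase, was at 28.6 and 82.6 CPM, a ratio of 2.89 (2.78 to 3.01).

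The 4 transferases split in 3 ways. Gstm1 (ENSMUSG00000058135, chr3:108012255-108017973), a cytosolic mu-class transferase, was at 24.5 and 92.7 CPM, a ratio of 3.79 (3.63 to 3.95). Mgst1 (ENSMUSG00000008540, chr6:138140316-138156755), a membrane-bound transferase with peroxidase activity, was at 63.0 and 129 CPM, a ratio of 2.04 (1.98 to 2.10). Both were higher in the iron-positive library. Gsto1 (ENSMUSG00000025068, chr19:47854970-47864790), an omega-class enzyme with thioltransferase activity, was nearly level at 59.8 and 65.7 CPM, a ratio of 1.10 (1.06 to 1.14). Gstp1 (ENSMUSG00000060803, chr19:4035407-4037985), the pi-class enzyme whose promoter match to the AP-1 site is printed above, was 1.54-fold lower (1.44 to 1.64) at 24.6 and 16.0 CPM.

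Near copies bear on 1 of these genes. In the annotation, 90.9% of the 60-base words in the last 400 bases of the longest Gstp1 transcript also occur in Gstp2 or Gstp-ps, while the other 9 members share none with any other gene, Gstm1 included. Reads of Gstp1 could therefore be dropped or split in counting, and its level is uncertain. The rows of its relatives were low, Gstp2 at 0.982 and 0.495 CPM and Gstp3 at 0.551 and 0.704 CPM. Gstm2, the mu-class neighbour of Gstm1, was at 1.24 and 8.24 CPM.

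Shares of cells with a UMI were compared at equal depth. After each phagocyte was thinned to 1000 UMIs, setting aside 269 iron-negative and 1088 iron-positive cells with fewer, a Gclm UMI was found in 3.57% of iron-negative cells (3.19 to 3.98, exact binomial) and 12.0% of iron-positive cells (11.3 to 12.7). Unthinned, these shares were 30.8% and 39.8%. For Gstm1 the thinned shares were 2.34% and 8.55%, for Gsr 3.22% and 8.19%, for Mgst1 6.00% and 12.1%, and for Slc7a11 7.36% and 12.4%. In the 69 iron-positive T or NK cells deep enough (median of the class 3840 UMIs), which serve as a reading of free RNA, the thinned share was 1.45% for Gclm (0.0367 to 7.81) and for Slc7a11, and 0 of 69 for Gstm1, Gsr and Mgst1, an upper bound of 5.21%. The iron-positive phagocyte share lay above these upper bounds for all 5 genes. The iron-negative library held only 22 T or NK cells, in which Slc7a11 had 0 UMIs (up to 20.9 CPM) against 82.0 CPM in its phagocytes, and Gclm 2 UMIs (11.3 CPM, 1.37 to 40.9) against 41.5 CPM. Mgst1 was at 5.67 CPM (0.143 to 31.6) against 63.0 CPM. Gsr was at 22.7 CPM (6.18 to 58.0) against 28.6 CPM, and Gstm1 at 5.67 CPM (0.143 to 31.6) against 24.5 CPM. The iron-negative phagocyte levels of Gsr and Gstm1 lay within these intervals and cannot be told from free RNA. Iron-negative Gclc did so too, at 31.4 CPM against 11.3 CPM (1.37 to 40.9). Iron-positive Gsto1 did as well, at 65.7 CPM against 65.0 CPM (46.4 to 88.5). Gss and Gstp1 lay within the T or NK intervals in both libraries. For Gstp1 these were 23.3 to 96.8 CPM iron-negative and 4.57 to 23.4 CPM iron-positive, around 24.6 and 16.0 CPM in phagocytes. These levels cannot be told from free RNA either.

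The next question was whether the differences came from which phagocytes each fraction held. Phagocytes were divided into 13 states by marker genes, each state named by those genes, and 33.0% of iron-negative and 36.4% of iron-positive phagocytes fell in none. The states are ranges of a score, and many cells lay near a limit: 56 iron-negative and 502 iron-positive phagocytes were within 20% of that of the state marked by Mmp12, Cd36 and Gpnmb (a matrix protease, a lipid scavenger receptor and a glycoprotein of lipid-laden macrophages). This state differed most in size, with 74 iron-negative cells (0.809% of phagocytes) and 1062 iron-positive cells (10.9%). All 13 states held at least 50 cells in both libraries.

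**Figure D2:**
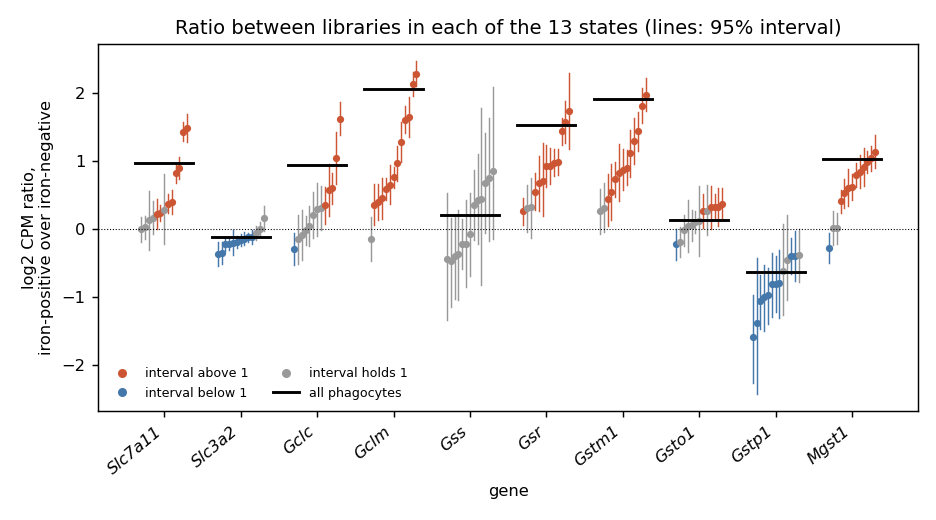
Log2 CPM ratio, iron-positive over iron-negative, of each member in each of the 13 states (points, with 95% intervals as lines) and in all phagocytes (black bar). Gsr and Gstm1 lie above 0 in all 13 states, Gstp1 lies below 0 in all 13, and Gclm ranges from 0.908-fold to 4.89-fold.

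Within states, 5 members were higher beyond their intervals in most of them. The share of all genes that were so was not counted, so this count is not read as a trait of the members. The medians of these 5 over the states lay below their ratios in all phagocytes, although each exceeded that ratio in at least 1 state. Gclm was higher beyond its interval in 12 of 13 states, with a median ratio of 1.70 against 4.19 in all phagocytes. Its ratio was highest in heat shock phagocytes (Hspa1a, Hspa1b and Dnajb1), at 37.2 and 182 CPM, 4.89-fold (4.30 to 5.59), and in the state marked by Mmp9, Pdpn, Syngr1 and Arg1, at 69.1 and 303 CPM, 4.39-fold (3.89 to 4.97). MHC class II-high phagocytes were the exception, at 27.9 and 25.3 CPM, a ratio of 0.908 (0.723 to 1.13). Gclm thus separated the libraries in nearly every state but the antigen-presenting one.

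Gsr and Gstm1 had ratios above 1 in all 13 states, as 1.26% of the 7715 genes measured did, and their intervals lay above 1 in 11 states each. The median ratio was 1.90 for Gsr and 1.83 for Gstm1. Gstm1 was highest in ratio in the Mmp9 Pdpn Syngr1 Arg1 state, at 37.8 and 149 CPM, 3.93-fold (3.33 to 4.67), and Gsr in the state marked by Retnla and Cbr2, at 11.1 and 37.3 CPM, 3.34-fold (2.28 to 4.93). Mgst1 was above 1 beyond its interval in 10 states and below it in 1, again the MHC class II state, where it was at 64.1 and 53.2 CPM, a ratio of 0.830 (0.713 to 0.964).

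Slc7a11 and Gclc were less uniform. Slc7a11 was higher beyond its interval in 8 states and its interval held 1 in 5, among them the Mmp12 Cd36 Gpnmb state at 385 and 394 CPM, a ratio of 1.02 (0.909 to 1.15). It was highest in ratio in heat shock phagocytes, at 36.1 and 101 CPM, 2.80-fold (2.43 to 3.24). Gclc was higher beyond its interval in 5 states, lower in 1 and held 1 in 7, and its median ratio over the states was 1.23. Both genes thus differed between the libraries in some states and not beyond counting error in others.

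Gstp1 was the most uniform member in the other direction, although its summed phagocyte level cannot be told from free RNA in either library. Its ratio was below 1 in all 13 states, as was that of 5.22% of the genes measured, and its interval lay below 1 in 10. It remained below the ratio of the median gene of the state in all 13, by 0.25 to 1.49 on the log2 scale. The ratio was lowest in the Retnla Cbr2 state, at 43.1 and 14.4 CPM, 0.335 (0.210 to 0.512), and in the Nos2 state, at 23.8 and 9.14 CPM, 0.384 (0.186 to 0.750). Slc3a2 was also below 1 beyond its interval in 10 states, but its distance from the median gene ran only from -0.28 to 0.23. Gss held 1 in all 13 intervals, and Gsto1 in 7, with 5 above and 1 below.

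With each state given the same weight in both libraries, the log2 ratios fell to 1.06 for Gclm, 1.09 for Gstm1, 0.88 for Gsr, 0.73 for Mgst1, 0.46 for Slc7a11 and 0.36 for Gclc, while Gstp1 went from -0.62 to -0.80. Slc7a11 and Gclc were then under 1.5-fold. Of the genes measured that way, 1.17% were at least 1.5-fold higher. All 6 ratios were thus smaller with the sizes of the states set equal, and that of Gstp1 was farther from 1.

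**Figure D3:**
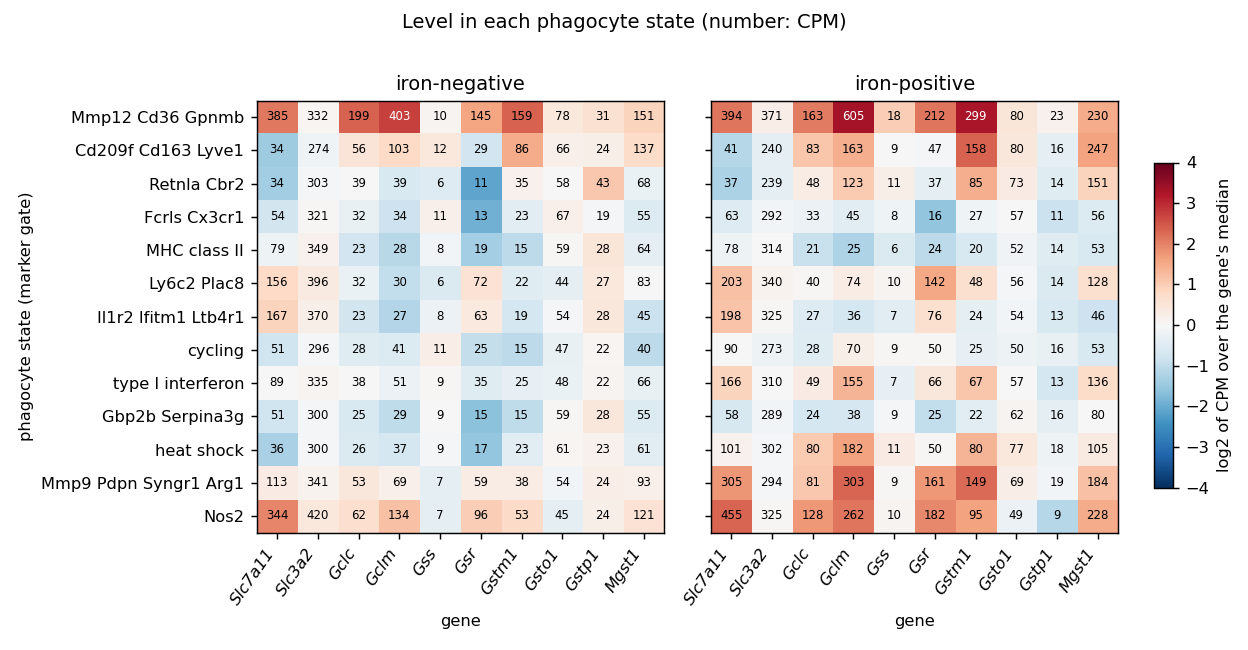
CPM of each member in each of the 13 phagocyte states, iron-negative left and iron-positive right, coloured by log2 of the level over that gene's median over the 26 groups. The Mmp12 Cd36 Gpnmb row is the highest for Gclm, Gclc, Gsr and Gstm1 in both libraries, Slc7a11 is also high in the Nos2 row, and Mgst1 in the Cd209f Cd163 Lyve1 row.

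The order of the states shows where each gene was highest. Gclm was highest in the Mmp12 Cd36 Gpnmb state of both libraries, at 605 CPM iron-positive and 403 CPM iron-negative, and in the iron-positive library it was next in the Mmp9 Pdpn Syngr1 Arg1 state (303 CPM) and the Nos2 state (262 CPM). Its lowest levels were 25.3 CPM in iron-positive MHC class II phagocytes and 26.6 CPM in the iron-negative state marked by Il1r2, Ifitm1 and Ltb4r1, which do not differ beyond their intervals from the 35.7 CPM (22.4 to 54.1) of iron-positive T or NK cells. Gclc, its partner, ran from 20.8 to 199 CPM over the 26 groups, and Gsr from 11.1 to 212 CPM. Gstm1 spanned 14.95 to 299 CPM, a 19.97-fold range, and Slc3a2 only 239 to 420 CPM, a 1.76-fold range.

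In the Mmp12 Cd36 Gpnmb state against the other phagocytes of its library, 6 of 9 members measured were at least 1.5-fold higher in the iron-negative library, where 8.56% of 7846 genes were, and 7 of 10 in the iron-positive library, where 6.03% of 7681 genes were. Gclm was 10.3-fold higher (9.17 to 11.5) in the iron-negative and 4.94-fold higher (4.78 to 5.10) in the iron-positive library. Gstm1 was 6.75-fold and 4.38-fold higher, Gclc 6.55-fold and 3.38-fold, Gsr 5.20-fold and 3.16-fold, Slc7a11 4.81-fold and 2.95-fold, and Mgst1 2.41-fold and 1.97-fold. Gss was the seventh in the iron-positive library, at 17.9 against 9.53 CPM, 1.88-fold (1.59 to 2.22). It passed the minimum of 10 CPM there only through the state in which it was high. Gstp1 was 1.26-fold and 1.495-fold higher, and Slc3a2 and Gsto1 lay at ratios of 1.01 to 1.30.

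Between the libraries, that state itself had 4 of 10 members at least 1.5-fold higher in the iron-positive library, where 6.65% of 7448 genes were: Gstm1 at 159 and 299 CPM, Gclm at 403 and 605, Mgst1 at 151 and 230, and Gss at 9.88 and 17.9, whose interval held 1. Gss again passed the minimum of 10 CPM only through the group in which it was high. Gclc went the other way at 199 and 163 CPM, a ratio of 0.817 (0.695 to 0.967). These iron-negative levels rest on few cells, which the intervals do not cover: 5 of the 74 cells held 78.3% of the 161 Gclc UMIs and 62.6% of the 326 Gclm UMIs, and 24 cells had any Gclc UMI. In the iron-positive state 439 of 1062 cells (41.3%) had a Gclc UMI, against 32.4% in the iron-negative state, the reverse order of the CPM, so no direction is read for Gclc there.

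Slc7a11 had a pattern of its own. Its highest level was in iron-positive phagocytes marked by Nos2, the inducible nitric oxide synthase, at 455 CPM (420 to 491), above the 394 CPM (381 to 406) of the iron-positive Mmp12 Cd36 Gpnmb state, and 107 of the 142 Nos2 cells had a Slc7a11 UMI. The Nos2 state of the iron-negative library stood at 344 CPM. Monocyte-like phagocytes marked by Ly6c2 and Plac8 were also high, at 156 and 203 CPM, and so was the Il1r2 Ifitm1 Ltb4r1 state, at 167 and 198 CPM, where Gclm was among its lowest. Phagocytes marked by Cd209f, Cd163 and Lyve1, genes of resident macrophages, had the reverse: Slc7a11 was only 33.7 and 41.0 CPM there, while Mgst1 reached 137 and 247 CPM and Gstm1 86.2 and 158 CPM. Slc7a11 and the transferases were thus ordered differently in these states, although Slc7a11 and Mgst1 were both high in the Nos2 state, where Mgst1 was at 121 and 228 CPM.

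Correlations over the 26 groups of state and library, given as a description since groups share a library and the state markers, put numbers on this. Over log2(CPM + 1), Pearson's r was 0.95 between Gclm and Gclc, 0.95 between Gclm and Gstm1, 0.92 between Gstm1 and Mgst1, and 0.89 between Gsr and Slc7a11, but 0.56 between Gclm and Slc7a11 and -0.06 between Gclm and Slc3a2. Among 4246 genes, those most alike to Gclm were Prdx1 (0.97), Cd36 (0.97), Cyb5a (0.96), Ptgr1 (0.96) and Rnf128 (0.95), Cd36 being a marker of a state. Slc7a11 was most like Sdc1 (0.94), Slc2a1 (0.94), Il7r (0.93), Tnfrsf9 (0.91) and Fth1 (0.90). Creg1 (0.97), Akr1b8 (0.96), Mt2 (0.96), Hmox1 (0.96) and Gclm (0.95) were nearest to Gstm1, and Creg1 (0.95), Mt2 (0.95), Slc48a1 (0.94), Htatip2 (0.92) and Gstm1 (0.92) to Mgst1.

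Cells of like level of Hmox1, the heme oxygenase that opens heme, were next set side by side. Heme was not measured, Hmox1 is itself among the genes most like Gstm1, and the highest range has no upper limit. Phagocytes were put in 4 ranges by Hmox1 UMIs per 10000: under 2, 2 to 10, 10 to 50, and 50 or more. The iron-negative library had 5176, 3012, 819 and 139 cells in them and the iron-positive library 3507, 2726, 2437 and 1029.

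**Figure D4:**
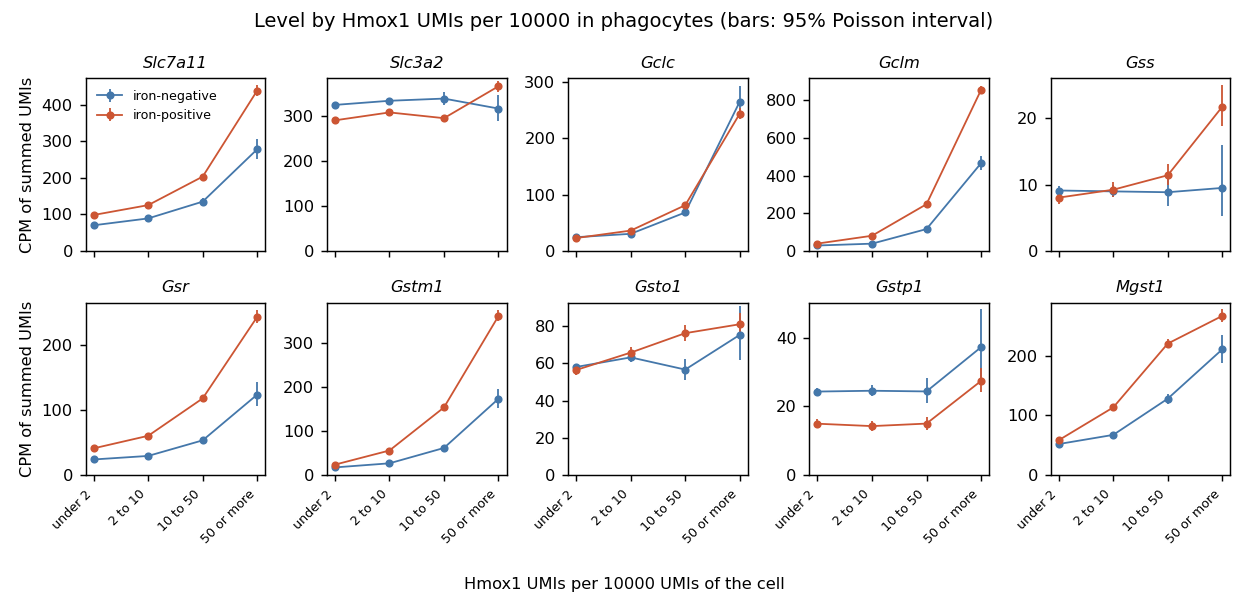
CPM of each member (bars, 95% Poisson intervals) in phagocytes of 4 ranges of Hmox1 UMIs per 10000, for the iron-negative and the iron-positive library. Gclm, Gclc, Gsr, Gstm1, Slc7a11 and Mgst1 climb with Hmox1 in both libraries, the Gclc lines nearly coincide, and the iron-positive Gstp1 line runs below the iron-negative one.

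Along these ranges 6 members climbed in both libraries. The share of all genes that climbed likewise was not counted, so the climb is not read as particular to the members. Gclm went from 28.3 over 38.01 and 116 to 466 CPM in iron-negative phagocytes and from 38.6 over 80.1 and 248 to 855 CPM in iron-positive phagocytes. Gclc went from 24.2 to 265 CPM and from 22.7 to 244 CPM, so that its ratio between the libraries within a range lay between 0.919 and 1.19. Among cells of like Hmox1 level Gclc thus differed less between the libraries than the 1.92-fold of all phagocytes. Its interval lay above 1 at 2 to 10 (1.10 to 1.29) and at 10 to 50 (1.07 to 1.32). It held 1 in the lowest and the highest range. Whether the Hmox1 level accounts for the Gclc difference was not tested. The ratio of Gclm was 1.36 (1.27 to 1.46) under 2, then 2.11, 2.14 and 1.84.

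Gsr and Gstm1 also kept a gap within each range, at ratios of 1.72 to 2.21 for Gsr and 1.37 to 2.50 for Gstm1, and Slc7a11 ran from 1.40 to 1.58. Mgst1 was close at the lowest range (51.9 and 58.4 CPM, ratio 1.12) and apart at 10 to 50 (128 and 220 CPM, ratio 1.72). Among cells with Hmox1 under 2 per 10000, Gsr alone remained at least 1.5-fold higher, at 24.0 and 41.1 CPM. Gstp1 was lower in the iron-positive library in every range, at ratios of 0.580 to 0.736, the interval in the highest range holding 1. Slc3a2 stayed between 290 and 366 CPM throughout.

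**Figure D5:**
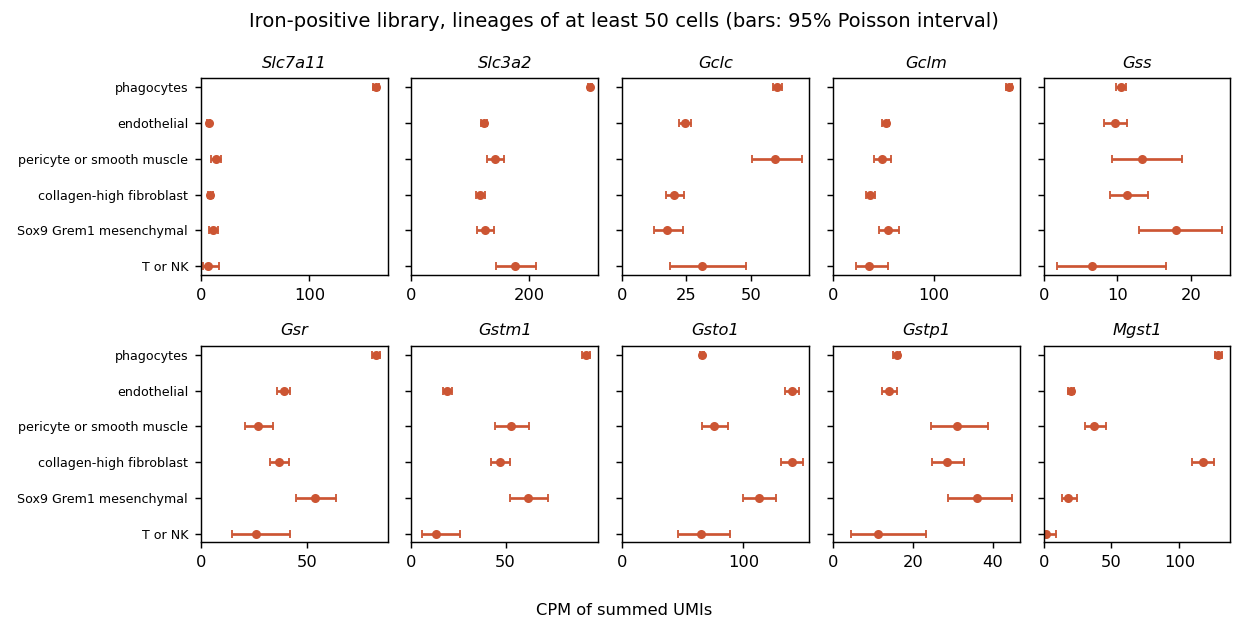
CPM of each member (bars, 95% Poisson intervals) in phagocytes and in the 5 other lineages with at least 50 cells in the iron-positive library. Slc7a11 is at 161 CPM in phagocytes and at most 13.8 CPM elsewhere, whereas Gsto1 is highest in endothelial cells and fibroblasts, at 140 CPM.

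Outside the phagocytes the members divided again, this time in the iron-positive library only, as each of these lineages had under 50 iron-negative cells. It held 802 endothelial cells, 144 pericytes or smooth muscle cells, 259 collagen-high fibroblasts, 103 mesenchymal cells marked by Sox9 and Grem1, and 70 T or NK cells. The tumor cells themselves have no marker in the labels, and whether the fibroblast and Sox9 Grem1 gates held tumor cells was not tested. Slc7a11 lay between 6.499 and 13.8 CPM in all 5, far under the 161 CPM of phagocytes. Slc3a2 did not vanish with it, at 117 to 175 CPM. Levels as low as those of Slc7a11 in these cells cannot be told from free RNA.

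The transferases differed in order between stromal cells and phagocytes. Gsto1 was at 140 CPM in endothelial cells (134 to 146) and in collagen-high fibroblasts (131 to 149), above its 65.7 CPM in phagocytes. Mgst1 was at 129 CPM in phagocytes and reached 117 CPM (110 to 126) in collagen-high fibroblasts, against 18.3 to 37.4 CPM in the other stromal lineages and 1.62 CPM, 1 UMI, in T or NK cells. These levels of 1 library differed between the types beyond counting error. Gstp1 was higher in pericytes (31.1 CPM), fibroblasts (28.6 CPM) and Sox9 Grem1 cells (36.2 CPM) than in phagocytes (16.0 CPM), but not in endothelial cells, at 14.05 CPM (12.3 to 16.0).

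Synthesis genes were counted in the stroma at levels near those of Hmox1-low phagocytes. Most of these levels, and most of those of Gsr, cannot be told from free RNA. Gclm was at 36.8 to 54.5 CPM, and Gsr at 26.8 to 53.7 CPM, in the 4 stromal lineages. Iron-positive T or NK cells, the reading of free RNA, had intervals of 22.4 to 54.1 CPM for Gclm. For Gsr they had 14.9 to 42.2 CPM, for Gclc 18.6 to 48.2 CPM and for Gss 1.77 to 16.6 CPM. Only Gsr in Sox9 Grem1 cells (44.7 to 63.9) and Gclc in pericytes or smooth muscle cells had intervals wholly above these. Gclc stood out in pericytes or smooth muscle cells, at 59.5 CPM (50.4 to 69.7) against 17.5 to 24.3 CPM in the other stromal lineages and 60.3 CPM in phagocytes. Gss was at 9.69 to 17.9 CPM, and Gstm1 at 19.1 CPM in endothelial cells and 47.1 to 61.8 CPM in the others, all under its 92.7 CPM in phagocytes. In the few stromal cells of the iron-negative library, Gstp1 stood higher, at 61.6 CPM in 27 collagen-high fibroblasts (48.0 to 78.0) and 79.7 CPM in 38 Sox9 Grem1 cells (67.2 to 93.9), than the 28.6 and 36.2 CPM of the iron-positive library. That direction of Gstp1 was the one seen in phagocytes. These iron-negative Gstp1 levels lay within the interval of iron-negative T or NK cells, 23.3 to 96.8 CPM. In 21 iron-negative endothelial cells Gstm1 was lower, at 8.21 CPM (2.24 to 21.0) against 19.1 CPM (17.0 to 21.3) iron-positive, with overlapping intervals. In the fibroblasts and the Sox9 Grem1 cells Gstm1 was higher in the iron-negative library, opposite to its own direction in phagocytes. It was at 63.4 iron-negative and 47.1 CPM iron-positive in the fibroblasts, with overlapping intervals, and 94.2 and 61.8 CPM in the Sox9 Grem1 cells. Depth differed too, with median UMIs of 42892 and 17995 in the fibroblasts and 43624 and 5282 in the Sox9 Grem1 cells. Gsto1 was at 191 and 112 CPM in the Sox9 Grem1 cells.

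The other genes of the glutathione pathway were taken as 10 lists by function. Of 85 genes, 83 had a single row, 43 were measured, 3 were at least 1.5-fold higher in iron-positive phagocytes and 0 lower, where 2.32% and 0.609% of all genes were, and their median log2 ratio was -0.00. Those 3 were Prdx6, a peroxiredoxin that uses glutathione (111 and 247 CPM, 2.23-fold), Esd, which hydrolyses S-formylglutathione (207 and 428 CPM, 2.07-fold), and Abcc1, an exporter of glutathione conjugates (43.0 and 64.6 CPM, 1.501-fold). The glutathione peroxidases Gpx1 (1001 and 1017 CPM) and Gpx4, which reduces lipid peroxides (337 and 397 CPM, 1.18-fold), differed less. Slc25a39, the mitochondrial glutathione carrier, was at 92.03 and 86.8 CPM. Chac1, a glutathione-degrading enzyme, was under 10 CPM in both, with 7 and 15 UMIs.

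The 40 pathway genes under 10 CPM in both libraries were not all level. Among those with UMIs in both libraries, 9 were at least 1.5-fold higher in iron-positive phagocytes with an interval above 1, and 2, Gstp2 and Gstt1, were as much lower. The share of all genes under 10 CPM that did so was not counted, so these counts are not read as a trait of the pathway. The genes named here were chosen after their values were seen. The alpha-class transferase Gsta3 had 37 iron-negative and 508 iron-positive UMIs, 18.9-fold (13.5 to 27.2), and the microsomal transferase Mgst2 had 46 and 451 UMIs, 13.5-fold (9.96 to 18.7). Gstm2 had 155 and 749 UMIs, 6.66-fold (5.59 to 7.97), and Me1, the NADPH-forming malic enzyme, 50 and 203 UMIs, 5.60-fold (4.09 to 7.79). These ratios exceed that of any member, at levels of at most 8.24 CPM.

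Transcripts of the regulators themselves were not higher in the iron-positive phagocytes. Nfe2l2, which encodes NRF2, was at 414 and 365 CPM, its inhibitor Keap1 at 49.3 and 46.1 CPM, the repressor Bach1 at 207 and 182 CPM, and Atf4 at 215 and 203 CPM. These are transcript levels, and both NRF2 and ATF4 are known to be controlled largely after transcription. All 6 genes of the list of NRF2 and its partners, and the 3 measured of ATF4 and its targets, lay within 1.5-fold. Under 10 CPM, however, the ATF4 targets Trib3 (148 and 327 UMIs, 3.04-fold, 2.50 to 3.72) and Asns (198 and 370 UMIs, 2.58-fold, 2.16 to 3.08) were higher in the iron-positive phagocytes. Of the other targets on that list, Psat1 was lower, at 20.8 and 15.3 CPM, a ratio of 0.736 (0.689 to 0.785). The intervals of Sesn2 (ratio 0.958, 0.904 to 1.02) and Phgdh (ratio 0.996, 0.836 to 1.18) held 1.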

How the data were processed

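The 2 libraries, 1 per column fraction, were made with 10x Genomics 3' v3 chemistry. The deposited values are raw UMI counts per gene and barcode, not normalized, per the file headers. Reads were processed with Cell Ranger on build mm10, per the submitters' processing notes, which give version 3.1.0 where the file header gives 5.0.0; which made the counts was not settled. The deposited counts start at 500 UMIs per barcode. For the annotation release used in counting, no version is given in the sources used here. Of 32285 gene IDs, 32158 (99.6%) matched GENCODE for GRCm38, the source of gene coordinates.

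Barcodes were gated by marker limits that were set after the scores had been seen. Limits for other lineages were 5 to 40 marker UMIs per 10000, and barcodes past the limits of both phagocytes and another lineage were set aside. A state needed 3 marker UMIs and a score past the mean of the libraries' 90th percentiles (at least 5 per 10000). No doublet caller was run, so doublets remain. UMIs were summed per group and given as CPM. Intervals (95%) are exact Poisson for sums, exact binomial for shares and exact conditional for ratios. They cover counting error only, since cells are not replicates and 1 library per group allows no test. Log2 ratios used counts plus 0.5. In phagocytes, 0 cells with a UMI would allow a share of up to 0.0328% (iron-negative) or 0.0309% (iron-positive), from 3 counts.

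The members and lists were chosen with earlier results of these data known. All members are named. Pathway genes were named if at least 1.5-fold different, plus 10 fixed ones; genes most alike were the 5 highest correlations among genes at 50 CPM or more. The ratio and its interval were tested on simulated data. Alternatives changed filters, scaling, thinning, free RNA, doublets, gates and state weights. Scripts ran on Python 3.11.15 with pandas 2.3.3, scipy 1.17.1, matplotlib 3.10.9 and numpy 2.4.6.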

Additional observations from a re-analysis of the deposited data

Results flagged for a closer look

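Barcodes that passed the filters but met no lineage's marker limit entered no comparison. In them 9 of 10 members stood higher in the iron-positive than in the iron-negative library. The share of all genes that stood higher was not counted, so that count is not read as a trait of the members. For 6 members the interval of the iron-positive over iron-negative ratio lay wholly above 2, as it did for 7% of 8666 genes at 10 CPM or more. In 722 iron-positive barcodes (median 1864 UMIs) Gclm was at 531 CPM, against 63.4 CPM in 89 iron-negative barcodes (median 2693 UMIs). Slc7a11 was at 330 CPM against 11.9, Gclc at 233 against 20.1, Slc3a2 at 412 against 99.2, Gstm1 at 213 against 23.9 and Mgst1 at 135 against 9.69. Short of that limit were Gsr at 143 against 63.4, Gss at 31.4 against 18.6 and Gsto1 at 109 against 94.7, and Gstp1 was lower at 24.6 against 47.7. The iron-positive barcodes held a median of 71.1 phagocyte marker UMIs per 10000 and the iron-negative ones 62.8, both under the limit of 100. In the iron-positive barcodes Mmp12 was at 2818 CPM, Cd36 at 554 CPM and Gpnmb at 174 CPM. In the iron-negative barcodes these were at 99.2, 4.47 and 16.4 CPM.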

How the results depend on the processing

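Over 15 alternatives, Gclm, Gsr, Slc7a11, Gstm1 and Mgst1 kept a log2 ratio above 0 in all phagocytes, and Gstp1 one below 0. The count of higher members fell from 6 to 4 with equal states, and to 1 among phagocytes with Hmox1 under 2 per 10000, a range chosen after seeing the data, where Gclc (-0.090), Gss (-0.18) and Gsto1 (-0.041) changed direction. It was 6 under the other 13 alternatives. Scaling by the median ratio moved the count of lower members from 1 to 0 and Slc3a2 to 0.00019. The members' median log2 ratio of 0.96 was 0.83 as a mean of each cell's CPM, 1.07 with that scaling, 0.87 after thinning, 0.74 without the Mmp12 Cd36 Gpnmb state, 0.46 with equal states, 0.79 with the phagocyte limit doubled, 1.04 with it halved (chosen after seeing the data) and 0.17 among the Hmox1-low cells. Higher pathway genes fell from 3 to 1 with equal states. In the Mmp12 Cd36 Gpnmb state, 49 of 80 alternative levels stayed within the interval; with its limit doubled it held 38 iron-negative and 797 iron-positive cells. Depth limits Gss most, and the iron-negative library's stromal cells, under 50 per lineage, limit comparisons there. No paired analysis was possible because each group has 1 library.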

Other observations

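In the iron-positive library, 23 barcodes carried the neutrophil markers, too few for the comparisons above. Slc7a11 stood at 2328 CPM in them (1872 to 2861), with 90 UMIs found in 16 of the 23 barcodes, against 161 CPM in the phagocytes of that library. Their median depth was 1654 UMIs. Slc3a2 was at 336 CPM there (179 to 575), on 13 UMIs, and Gclm at 129 CPM (42.0 to 302), on 5 UMIs. In the phagocytes the 5 neutrophil markers summed to 45.7 CPM iron-negative and 64.0 CPM iron-positive. Csf3r was the highest of them, at 39.5 and 37.7 CPM, so the higher iron-positive sum came from the other neutrophil markers. Its part in the Slc7a11 level of the phagocytes was not tested.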
